A study of Homo sapiens with 12 samples.

Results

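The response of C4-2 cells to combined inhibition of the histone demethylases KDM1A and KDM7A was described across all genes and pathways. The members were 4 of the 12 libraries of the series, chosen by their titles. A pair came from LNCaP:C42 cells given R1881, namoline and TCE-5002 (the combination), and a pair from LNCaP:C42 cells given R1881 alone. C4-2 is a castration-resistant derivative of the androgen-dependent human prostate cancer line LNCaP, and R1881 is a synthetic androgen. All 4 C4-2 groups carried R1881 at 1 nM, so no C4-2 group without androgen was compared. Cells were treated for 72 h. The KDM1A inhibitor namoline was listed at 50 µM. The KDM7A inhibitor TCE-5002 was listed at 100 µM in the series description, whereas the study's methods gave a lower dose, so its dose is uncertain. The paper describes TCE-5002 as selective for KDM7A but also active on PHF8 (KDM7B) and KDM2A. The response is therefore not one to KDM1A and KDM7A inhibition alone. The 2 libraries each of C4-2 with R1881 and namoline and of C4-2 with R1881 and TCE-5002 shared the fit and served for comparison. Replicates were described in the methods as biological, and all came from 1 cell line at 1 time point, which limits the groups as a model. The p-values measure only the spread between these libraries.

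KDM1A (LSD1) removes methyl groups from lysine 4 of histone H3 within the CoREST repressor complex, and in prostate cells it also takes part in androgen signalling. KDM7A belongs to the JmjC demethylases and removes repressive methyl marks from histone H3. Both enzymes have been studied as co-regulators of androgen-driven transcription in prostate cancer, where the kallikrein KLK3 (PSA) is the standard readout of androgen signalling. An inhibitor acts on the protein, so the transcript of its target does not show whether it acted.

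Of 17702 genes tested, 1571 rose (8.87%) and 2263 fell (12.8%) with the combination against R1881 alone. Here rose and fell mean an edgeR adjusted p under 0.05 together with a change of at least 2-fold. By adjusted p alone 4385 genes were higher (24.8%) and 4524 lower (25.6%). Against namoline the combination raised 2267 genes (12.8%) and lowered 2594 (14.7%), and against TCE-5002 it raised 2077 (11.7%) and lowered 2537 (14.3%), by the same rule with the 2-fold condition. The median log2 fold change over all genes was -0.03, so the changes below are close to changes relative to the typical gene. When libraries were scaled by their totals alone that median was -0.17. Changes of at least 4-fold numbered 467 rising and 647 falling genes, and changes of at least 16-fold 77 and 42. Among long non-coding RNA genes 555 of 2769 fell (20.04%) and 328 rose (11.85%). Among protein-coding genes 1490 of 13270 fell (11.23%) and 989 rose (7.453%), so both shares were larger for long non-coding genes. Levels are counts scaled to the TMM library size (counts per 1e6, CPM), which do not allow for gene length, and are compared between samples only. The 8 C4-2 libraries held 14791602 to 20295282 counts. Between replicates 2 of 9775 genes over 10 CPM stood 2-fold apart with R1881, 4 with the combination, 6 with namoline and 49 with TCE-5002. Both combination libraries lay above both R1881 libraries for 39.17% of genes tested and below them for 41.91%. Groups that do not overlap were therefore common and add little for a single gene. In bulk RNA fewer cells of a type and less RNA per cell cannot be told apart.

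**Figure D1:**
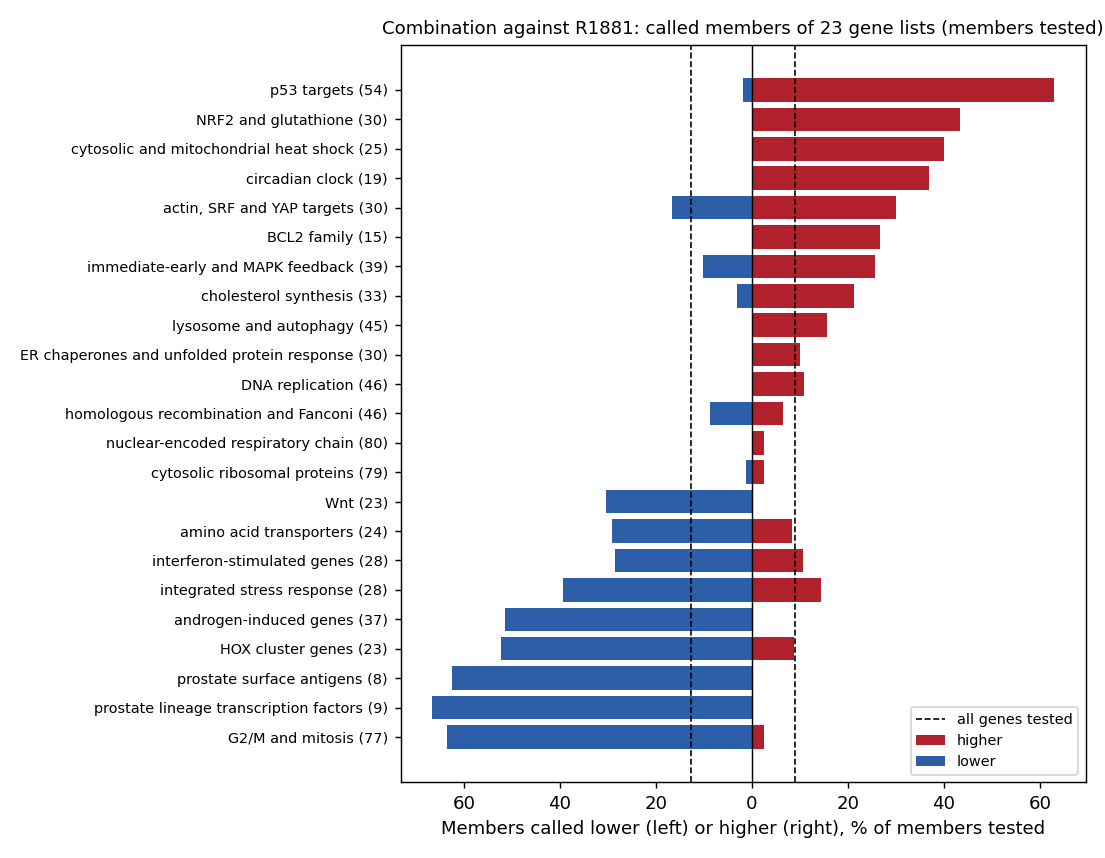
Share of tested members called higher (right) or lower (left) with the combination against R1881, for 23 gene lists, with the number of members tested in brackets and the share over all genes tested as dashed lines. p53 targets lie farthest to the right and the prostate lists, the HOX genes and the G2/M list farthest to the left.

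The libraries carried transcripts of luminal prostate epithelium. With R1881 the keratin genes KRT8 and KRT18, which overlap each other in the annotation, stood at 369 and 317 CPM and the adhesion gene CDH1 at 958 CPM. Of the 17 luminal markers 16 were tested. Of the 8 basal markers only S100A2 and ITGA6 passed the filter on low counts, and the defining basal genes KRT5, KRT14 and TP63 were at or near 0 in both groups. Of the 20 mesenchymal markers 8 were tested, and the most abundant were the matrix genes COL1A1, at 49.2 CPM with R1881 and 75.3 CPM with the combination, and FN1, at 26.98 and 9.0 CPM. The summed level of the mesenchymal list was 88.05 and 89.9 CPM with R1881 and 92.2 and 106 CPM with the combination. Of 15 leukocyte markers 4 were tested. PTPRC, CD3E and CD2 were at or near 0, and CD8A fell from 2.31 and 1.97 to 0.880 and 1.14 CPM (log2 fold change -1.09, SE 0.37, edgeR adjusted p 0.0246). The other tested markers LYZ, CSF1R and CD68, all at low levels, did not pass, at 1.25, 1.24 and 0.57 on the log2 scale. The summed level of the leukocyte list was 3.79 and 3.42 CPM with R1881 and 3.35 and 3.78 CPM with the combination. Of 7 endothelial markers VWF alone was tested, and it fell from 8.49 and 6.15 to 0.275 and 0.300 CPM (log2 fold change -4.65, SE 0.35, edgeR adjusted p 1.54e-07), while PECAM1, CDH5 and KDR were at or near 0.

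The transcripts of the inhibited enzymes and their relatives came first. KDM7A (ENSG00000006459, chromosome 7, 140084746 to 140177035, GRCh38) stood at 99.9 and 95.03 CPM with R1881 and 235 and 271 CPM with the combination. Both combination libraries lay above both R1881 libraries, a log2 fold change of 1.38 (edgeR adjusted p 8.52e-07, SE 0.12). With the single inhibitors it was lower than with R1881, at 62.2 and 54.5 CPM with namoline and 69.4 and 59.5 CPM with TCE-5002, and the combination exceeded them by 2.12 (SE 0.13, edgeR adjusted p 1.3e-08) and 1.97 (SE 0.13, edgeR adjusted p 2.31e-08) on the log2 scale. KDM1A (ENSG00000004487, chromosome 1, 23019448 to 23083689) was at 74.1 and 72.4 CPM with R1881 and 70.2 and 71.02 CPM with the combination. The combination libraries lay slightly below the R1881 libraries, a difference that did not pass the test (log2 fold change -0.05, SE 0.12, edgeR adjusted p 0.732). Of the other 4 KDM7 and KDM2 demethylases none reached 2-fold. KDM2A, which acts on lysine 36 of histone H3, was at 0.40, PHF8 at -0.22, PHF2 at -0.02 and KDM2B, which overlaps RNF34, at 0.16 on the log2 scale. Only KDM2A of these passed the adjusted p.

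Few of the remaining demethylases and CoREST genes reached 2-fold. In the CoREST list 0 of 14 genes did, 3 were higher and 3 lower by adjusted p, and the median log2 fold change was -0.11. Over all genes 24.8% were higher and 25.6% lower by adjusted p. GSE1, a subunit of the complex, went from 334 ± 6.04 to 169 ± 1.61 CPM (SD, n = 2, as for every ± below), a log2 fold change of -0.98 (edgeR adjusted p 7.28e-06, SE 0.11). The deacetylase partners HDAC1 and HDAC2 were at -0.25 and 0.26. Among 12 demethylases of the KDM3 to KDM6 families KDM3A rose and KDM4C fell (8.33% each, against 8.87% and 12.8% of all genes). By adjusted p 5 of the 12 were higher and 2 lower. KDM3A, a demethylase of lysine 9 of histone H3, stood at 74.3 and 73.9 CPM with R1881 and 142 and 158 CPM with the combination (log2 fold change 1.02, SE 0.11, edgeR adjusted p 3.59e-06). KDM4C stood at 27.5 and 30.4 CPM with R1881 and 13.4 and 14.7 CPM with the combination (log2 fold change -1.04, SE 0.14, edgeR adjusted p 3.17e-05). The groups did not overlap for either gene. Without combination replicate 2 KDM3A was at 0.95, and without R1881 replicate 2 KDM4C was at -0.98, both short of 2-fold.

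Among protein-coding genes at 10 CPM or more in the higher group, with groups that did not overlap, the 12 largest rises included genes of thyroid hormone metabolism, growth arrest and the cytoskeleton, and secreted factors. Larger fitted folds of genes at lower levels are not ranked. DIO3 (chromosome 14, 101561351 to 101563452), which inactivates thyroid hormone, stood at 0.508 and 1.27 CPM with R1881 and 604 and 655 CPM with the combination, a log2 fold change of 9.55 (edgeR adjusted p 2.02e-08, SE 0.57). With namoline it was already at 24.9 and 5.45 CPM and with TCE-5002 at 11.5 and 13.6 CPM. The combination exceeded namoline by 5.37 (SE 0.42, edgeR adjusted p 1.38e-07) for this gene. SULF2, a heparan sulfate sulfatase that overlaps NCOA3, went from 0.323 and 0.697 to 15.1 and 14.8 CPM (log2 fold change 4.92, SE 0.31, edgeR adjusted p 3.11e-08). CDKN1A (chromosome 6, 36676460 to 36687339), the p21 inhibitor of cyclin-dependent kinases, was at 57.3 and 72.5 CPM with R1881 and 1410.0 and 1482 CPM with the combination (log2 fold change 4.48, SE 0.17, edgeR adjusted p 2.91e-10). For each of these 3 genes both combination libraries lay far above both R1881 libraries.

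FAS, a death receptor gene that overlaps ACTA2, went from 2.08 and 2.03 to 38.98 and 38.2 CPM (log2 fold change 4.23, SE 0.25, edgeR adjusted p 1.79e-08). The 2 libraries of each group lay close together and far from the other group. TPM4, a tropomyosin that coats actin filaments, was at 8.68 and 9.26 CPM with R1881 and 161 and 168 CPM with the combination, and FLNA, an actin crosslinker, at 116 and 132 CPM with R1881 and 1643 and 1853 CPM with the combination. Their log2 fold changes were 4.20 (SE 0.14) and 3.82 (SE 0.17). LIF, a cytokine of the interleukin-6 family, went from 0.831 and 1.204 to 16.8 and 16.99 CPM, and the serine/threonine kinase gene PIM1 from 3.05 and 4.06 to 46.7 and 59.1 CPM. ATF3, a stress-induced transcription factor, rose from 121 and 121 to 1738 and 1856 CPM (log2 fold change 3.90, SE 0.12, edgeR adjusted p 6.32e-11). FGF13, which encodes an intracellular member of the fibroblast growth factor family, METRNL, which encodes a secreted protein, and SIPA1L2 completed these 12 rises, at 4.22 (SE 0.22), 4.11 (SE 0.25) and 3.78 (SE 0.12). The edgeR adjusted p of these 12 genes was under 0.001 in each case, and their groups did not overlap by the rule that chose them.

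By the same limits the falling genes were led by BCL11B. This zinc finger transcription factor gene (chromosome 14, 99169287 to 99271524), known from T lymphocytes, was at 27.1 and 27.4 CPM with R1881 and 0.275 and 0.180 CPM with the combination, a log2 fold change of -6.85 (edgeR adjusted p 1.19e-09, SE 0.29). The combination values rest on a few reads per library. It was low with each single inhibitor too, at 1.04 and 0.637 CPM with namoline and 2.38 and 2.37 CPM with TCE-5002. IL2RB, the interleukin-2 receptor beta chain, went from 27.1 and 29.6 to 1.87 and 4.56 CPM (log2 fold change -3.15, SE 0.28, edgeR adjusted p 9.1e-07), and was lower still with namoline at 0.288 and 0.290 CPM. TMEM154, a transmembrane protein gene, went from 15.7 and 15.1 to 1.81 and 1.38 CPM (log2 fold change -3.26, SE 0.21, edgeR adjusted p 4.63e-08). CD8A, a further T lymphocyte gene, fell too, whereas PTPRC and CD3E were at or near 0 in both groups. In a list of genes expressed in lymphocytes 7 were tested, of which 3 fell, 1 rose and 3 did not pass. The shares were 42.9% fallen and 14.3% risen, against 12.8% and 8.87% of all genes. The list was written with earlier results of these data known, so its shares add no separate support to the falls named above. The part of other cells in the falls of BCL11B, IL2RB, TMEM154 and CD8A was not tested.

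STYXL2, a phosphatase-like protein, stood at 56.1 and 53.5 CPM with R1881 and 2.53 and 2.401 CPM with the combination (log2 fold change -4.47, SE 0.24, edgeR adjusted p 7.91e-09). PIF1, a DNA helicase that acts at replication forks and telomeres, went from 16.8 and 13 to 1.54 and 0.720 CPM (log2 fold change -3.70, SE 0.31, edgeR adjusted p 5.1e-07). PRKAR2B, a regulatory subunit of protein kinase A, went from 37.4 and 35.1 to 4.51 and 3.12 CPM, and MAP2K6, an activator of p38 kinases, from 23.9 and 19.9 to 3.46 and 2.22 CPM, log2 fold changes of -3.24 (SE 0.19) and -2.94 (SE 0.22). S100P, a calcium-binding protein of luminal cells, was at 129 and 119.9 CPM with R1881 and 15.01 and 16.4 CPM with the combination (log2 fold change -2.98, SE 0.21, edgeR adjusted p 1.02e-07). The amino acid transporter gene SLC38A4, the lipase-like gene PNLIPRP3, the adhesion gene FLRT1 and ARMC12 fell, with log2 fold changes of -3.14, -3.20, -2.95 and -3.13, with edgeR adjusted p under 0.001 for each.

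**Figure D2:**
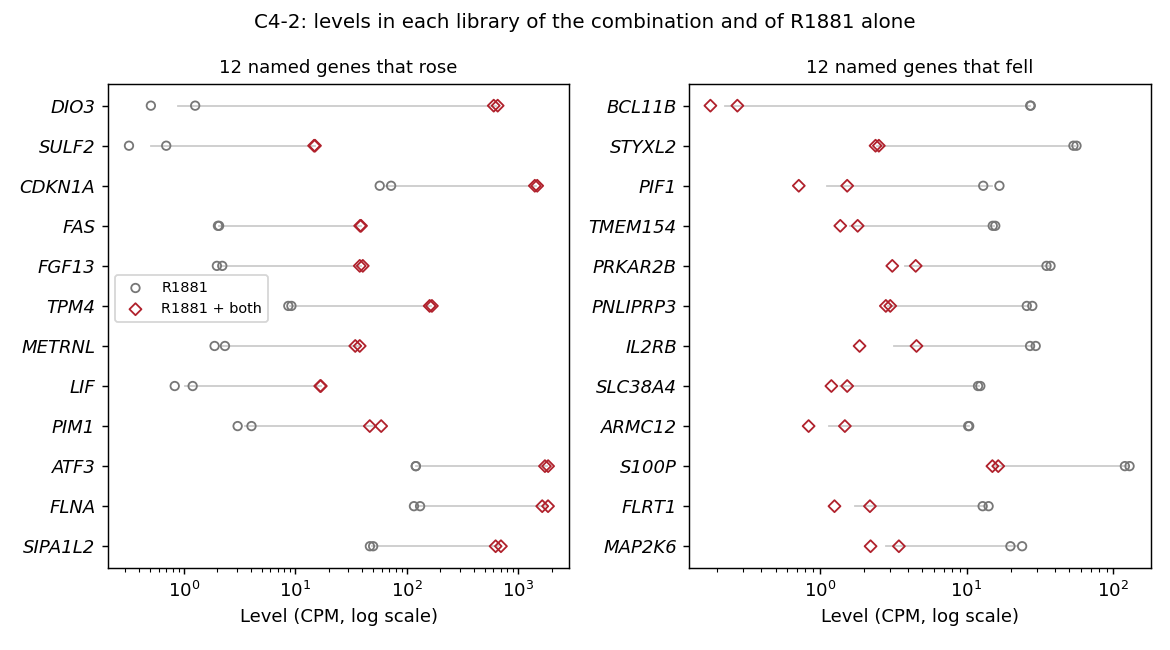
Level in CPM on a log scale in each of the 2 R1881 libraries (circles) and the 2 combination libraries (diamonds) for the protein-coding genes with the 12 largest rises and the 12 largest falls among those at 10 CPM or more in the higher group with groups that did not overlap. A grey line joins the group means.

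Many prostate genes fell with the combination. Of 37 androgen-induced genes 19 fell and 0 rose (51.4% against 12.8% of all genes). By adjusted p 29 were lower, against 25.6% of all genes. Their median log2 fold change was -1.15, against -0.03 over all genes. KLK3 (ENSG00000142515, chromosome 19, 50854915 to 50860764) stood at 203 and 222 CPM with R1881 and 52.4 and 40.9 CPM with the combination, a log2 fold change of -2.19 (edgeR adjusted p 1.08e-07, SE 0.16). KLK2, which encodes a related kallikrein, stood at 136 and 142 CPM with R1881 and 58.8 and 46.2 CPM with the combination (log2 fold change -1.41, SE 0.15, edgeR adjusted p 4.74e-06). Both combination libraries lay under both R1881 libraries for each of these genes. KLK4 did not pass the test at -0.25 (SE 0.12), and the kallikrein pseudogene KLKP1 rose from 4.03 ± 0.0490 to 16.4 ± 2.12 CPM. The kallikreins are similar copies of each other, so their counts are uncertain.

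TMPRSS2 (chromosome 21, 41464551 to 41531116), an androgen-induced surface protease, was at 371 and 391 CPM with R1881 and 228 and 192 CPM with the combination. The groups did not overlap, and the difference passed the test but stayed under 2-fold (log2 fold change -0.86, SE 0.12, edgeR adjusted p 4.52e-05). With the single inhibitors it stood higher than with R1881, at 727 and 825 CPM with namoline and 1263 and 1321 CPM with TCE-5002, and the combination differed from them by -1.89 (SE 0.12, edgeR adjusted p 2.67e-08) and -2.62 (SE 0.13, edgeR adjusted p 1.99e-09). KLK3 was at 163 and 209.7 CPM with namoline and 396 and 477 CPM with TCE-5002, against which the combination differed by -1.997 (SE 0.16, edgeR adjusted p 1.26e-07) and -3.22 (SE 0.16, edgeR adjusted p 2.95e-09). Against namoline 26 of the 37 androgen-induced genes fell and 1 rose, and against TCE-5002 24 fell and 0 rose. Over all genes 14.7% fell and 12.8% rose against namoline, and 14.3% fell and 11.7% rose against TCE-5002. The largest falls against R1881 were those of the transcription factor genes MAF and TSC22D3, at -2.88 (SE 0.25) and -2.49 (SE 0.15), followed by NNMT at -2.24 (SE 0.40) and PLPP1, which overlaps MTREX, at -2.05 (SE 0.11). Among the most abundant members ABCC4, a drug and nucleotide exporter, fell from 702 ± 41.9 to 280.2 ± 20.02 CPM and UAP1, of the hexosamine pathway, fell from 585 ± 2.18 to 288 ± 11.6 CPM. ACSL3, a fatty acyl-CoA ligase, did not pass the test at -0.23 (SE 0.13).

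Transcription factors of the prostate lineage moved in the same direction. Of 9 tested, 6 fell (66.7% against 12.8% of all genes) and 0 rose, with a median of -1.31. FOXA1 (chromosome 14, 37589984 to 37596059), the pioneer factor of luminal cells, overlaps TTC6 in the annotation. It stood at 369.6 and 392 CPM with R1881 and 94.8 and 81.7 CPM with the combination (log2 fold change -2.11, SE 0.12, edgeR adjusted p 1.06e-08). HOXB13, a prostate homeobox factor, stood at 134 and 143 CPM with R1881 and 39.6 and 38.5 CPM with the combination (log2 fold change -1.83, SE 0.12, edgeR adjusted p 6.66e-08). With the single inhibitors FOXA1 was at 369 and 391 CPM with namoline and 457 and 479 CPM with TCE-5002, so both combination libraries were lower than every library of the other 3 groups. CEBPD and CREB3L4, the latter overlapping JTB and SLC39A1, fell, at -2.07 and -1.44. GRHL2 was lower by less than 2-fold at -0.63 (SE 0.11).

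Cell surface antigens of the prostate were lower as well, with 5 of 8 fallen (62.5% against 12.8% of all genes) and 0 risen. FOLH1, which encodes prostate-specific membrane antigen, went from 875 and 845 to 267 and 266 CPM (log2 fold change -1.69, SE 0.12, edgeR adjusted p 9.58e-08). STEAP2, a metalloreductase, went from 1214 and 1145 to 450.4 and 325 CPM (log2 fold change -1.61, SE 0.15, edgeR adjusted p 1.07e-06), and STEAP1 from 175 ± 12.4 to 62.8 ± 8.39 CPM. CD24 also fell, from a level under 2 CPM. Of 14 steroid-metabolising enzymes 3 fell and 2 rose (21.4% and 14.3%, against 12.8% and 8.87% of all genes). UGT2B15, which glucuronidates androgens and both overlaps and resembles UGT2B17, went from 25.7 ± 2.11 to 8.92 ± 0.987 CPM (log2 fold change -1.53, SE 0.17, edgeR adjusted p 4.87e-06), and HSD17B6, overlapping PRIM1, fell from 1.56 to 0.685 CPM, a call lost without either R1881 library or combination replicate 2. SRD5A2 fell from 1.12 CPM to 0.0850 CPM. AKR1C1, which overlaps AKR1C3, and AKR1C2, which encode closely similar enzymes, rose from 0.986 and 0.617 CPM to 3.54 and 2.04 CPM.

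**Figure D3:**
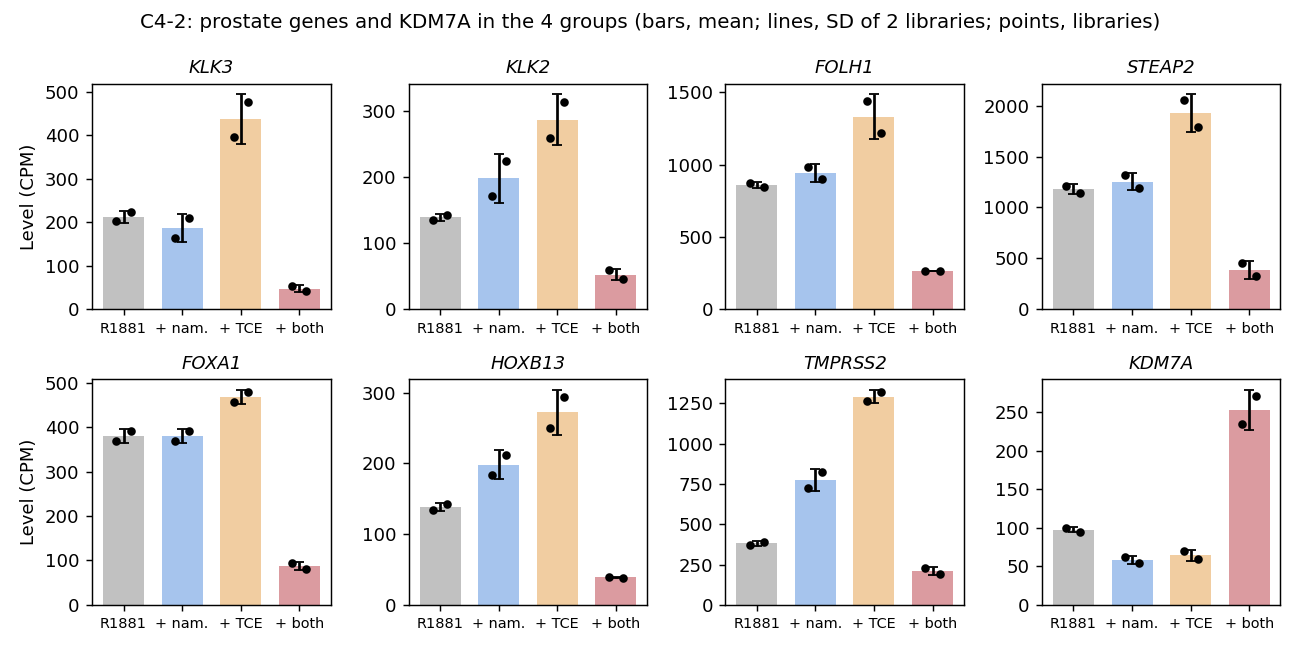
Level in CPM of 7 prostate genes and KDM7A in the 4 C4-2 groups, as bars for the mean, lines for the SD of 2 libraries and points for the libraries. The prostate genes were lowest with the combination and KDM7A highest.

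Most genes of the G2 phase and mitosis fell. Many promoters of such genes carry a cell cycle gene homology region (CHR), which binds the DREAM and MuvB complexes, next to CCAAT boxes bound by NF-Y, and p21 acts upstream of DREAM. To show these elements, the stretch from 120 bases before to 30 bases after the RefSeq start (GRCh38.p14) is given below for members with large falls or high levels and for CDC25A, which rose. Capitals mark the CHR letters TTTGAA and the CCAAT box letters CCAAT on either strand (TTCAAA and ATTGG when on the opposite strand).
CDC25C, chr5:138338326-138338475, minus strand: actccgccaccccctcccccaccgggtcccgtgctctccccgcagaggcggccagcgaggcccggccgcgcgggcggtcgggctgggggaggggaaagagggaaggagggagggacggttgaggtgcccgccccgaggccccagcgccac
CENPA, chr2:26785936-26786085, plus strand: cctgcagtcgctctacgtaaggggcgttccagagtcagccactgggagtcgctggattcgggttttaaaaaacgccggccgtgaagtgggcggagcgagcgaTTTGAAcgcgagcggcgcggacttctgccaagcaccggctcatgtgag
CENPF, chr1:214603075-214603224, plus strand: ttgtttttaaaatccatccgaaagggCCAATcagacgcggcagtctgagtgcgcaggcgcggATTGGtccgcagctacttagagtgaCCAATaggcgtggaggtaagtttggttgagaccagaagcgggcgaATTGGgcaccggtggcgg
ASPM, chr1:197146640-197146789, minus strand: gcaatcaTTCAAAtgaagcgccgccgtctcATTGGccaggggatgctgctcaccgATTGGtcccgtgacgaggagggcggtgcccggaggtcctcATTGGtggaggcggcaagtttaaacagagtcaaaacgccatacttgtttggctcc
HMMR, chr5:163460512-163460661, plus strand: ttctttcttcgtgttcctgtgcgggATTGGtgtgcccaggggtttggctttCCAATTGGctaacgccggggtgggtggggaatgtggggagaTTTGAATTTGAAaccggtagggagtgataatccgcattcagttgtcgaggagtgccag
CCNB1, chr5:69167030-69167179, plus strand: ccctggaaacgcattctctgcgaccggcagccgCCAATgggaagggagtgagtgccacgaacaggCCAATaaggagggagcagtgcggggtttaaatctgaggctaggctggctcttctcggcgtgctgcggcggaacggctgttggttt
CDC25A, chr3:48188388-48188537, minus strand: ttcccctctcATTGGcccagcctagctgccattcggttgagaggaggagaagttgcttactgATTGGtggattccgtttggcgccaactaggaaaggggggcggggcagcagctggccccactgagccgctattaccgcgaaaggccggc

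In the window from 250 bases before to 50 bases after the start, a promoter was found for 63 of the 77 G2/M genes. The letters TTTGAA were present in 41 of them (65.1%) against 4212 of 27305 promoters of the same length (15.4%). CCAAT was present in 45 (71.4%) against 9747 (35.7%), and both in 33 (52.4%) against 1661 (6.08%). Of 40 matched genes that fell, 28 held TTTGAA and 31 held CCAAT, and of the 23 that did not fall, 13 and 14 did. HMMR held 2 adjoining CHR matches at positions -28 and -22 from the start, CENPA 1 at -18, and CENPF 1 at 41, outside the stretch shown. CDC25C held neither set of letters in this window. The window was taken at 1 RefSeq start for each gene, and other starts of CDC25C were not searched. A match describes letters and no binding was measured.

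Of 77 G2/M and mitosis genes tested, 49 fell (63.6% against 12.8% of all genes) and 2 rose, with a median log2 fold change of -1.46. The falls were spread over every role in the list. Among kinases and cyclins of mitotic entry 9 of 15 fell, among kinetochore and checkpoint genes 12 of 18, among spindle motors and cytokinesis genes 16 of 24, and among genes of the APC/C, securin and chromosome structure 12 of 20. CCNB1, the mitotic cyclin B1, stood at 124 and 104 CPM with R1881 and 40.7 and 37.7 CPM with the combination (log2 fold change -1.54, SE 0.15, edgeR adjusted p 1.25e-06). CENPF, a kinetochore protein, stood at 252 and 176 CPM with R1881 and 43.6 and 24.9 CPM with the combination (log2 fold change -2.64, SE 0.23, edgeR adjusted p 7.05e-07), and ASPM, of the spindle pole, at 61.5 and 37.5 CPM with R1881 and 11.6 and 6.36 CPM with the combination (log2 fold change -2.46, SE 0.26, edgeR adjusted p 3.87e-06). CENPE, a kinetochore motor, went from 92.3 ± 24.1 to 20.4 ± 4.896 CPM. The groups did not overlap for any of these 4 genes.

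CDC25C, the phosphatase that activates CDK1 at mitotic entry and a gene that overlaps FAM53C, went from 14.7 and 11.8 to 2.42 and 1.201 CPM (log2 fold change -2.86, SE 0.26, edgeR adjusted p 9.1e-07). CENPA, the centromeric histone H3 variant, which overlaps SLC35F6, went from 14.1 and 12.9 to 2.53 and 1.56 CPM (log2 fold change -2.71, SE 0.26, edgeR adjusted p 1.28e-06). FOXM1, a transcription factor for these genes that overlaps ITFG2, went from 81.6 ± 8.65 to 22.3 ± 2.87 CPM (log2 fold change -1.87, SE 0.19, edgeR adjusted p 2.65e-06). The proliferation marker MKI67 went from 137 ± 29.5 to 42.2 ± 15.6 CPM, TOP2A from 118 ± 17.1 to 36.98 ± 11.3 CPM, HMMR from 109 ± 20.2 to 30.8 ± 10.4 CPM and BUB1 from 40.3 ± 6.42 to 14.7 ± 0.993 CPM, with edgeR adjusted p under 0.001 for each. By contrast CDK1 itself was at -0.28 (SE 0.18) and the condensin gene SMC4, overlapping IFT80 and TRIM59, at 0.21 (SE 0.13), neither past the adjusted p. The 2 rising genes were WEE1, the kinase that holds CDK1 inactive, at 19.2 and 18.7 CPM with R1881 and 56.5 and 61.2 CPM with the combination, and CDC25A, a phosphatase of the G1 to S step, at 8.68 and 5.77 CPM with R1881 and 18.2 and 16.8 CPM with the combination. Their log2 fold changes were 1.64 (SE 0.15) and 1.26 (SE 0.20).

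With the single inhibitors the same genes stood at different levels. CENPF was at 104 ± 14.5 CPM with namoline and 41.7 ± 7.74 CPM with TCE-5002, and CCNB1 at 86.8 ± 16.6 and 38.9 ± 3.302 CPM. Against namoline the combination lowered 61 of the 77 genes and raised 0. Against TCE-5002 it lowered 17 and raised 1, and the median difference from TCE-5002 was -0.46 against -1.81 from namoline. Over all genes the combination lowered 14.7% and raised 12.8% against namoline. Against TCE-5002 these shares were 14.3% and 11.7%. MKI67 was at 50.8 and 50.5 CPM in the TCE-5002 libraries, beside 53.2 and 31.2 CPM with the combination, a difference of -0.26 (SE 0.20, edgeR adjusted p 0.292).

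DNA replication genes did not follow the mitotic genes. Of 46 tested, 5 rose (10.9%, near the 8.87% of all genes), 0 fell, and the median log2 fold change was 0.21. The 5 that rose were LIG1, the replicative DNA ligase (from 7.99 ± 0.530 to 25.6 ± 0.0269 CPM), CLSPN, of the replication checkpoint (from 4.76 ± 1.17 to 12.5 ± 3.48 CPM), RFC2, of the clamp loader (from 28.6 ± 0.943 to 67.8 ± 3.16 CPM), and the origin licensing genes MCM10 (from 3.56 ± 1.097 to 9.31 ± 2.38 CPM) and CDC6 (from 17.4 ± 4.14 to 37.8 ± 2.84 CPM). MCM7, overlapping AP4M1, was higher by less than 2-fold at 0.91 (SE 0.13), and RPA1, overlapping SMYD4, POLE and POLD2 did not pass at -0.17, -0.13 and -0.07. Against namoline 25 of the 46 genes fell and 0 rose, with a median of -1.04, where 14.7% of all genes fell and 12.8% rose. MCM10 shows the order of the groups, at 51.5 ± 7.72 CPM for namoline, 16.8 ± 3.495 CPM for TCE-5002 and 9.31 ± 2.38 CPM for both.

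Other cell cycle groups moved in part. E2F7, a repressor of E2F targets, rose from 5.87 ± 0.585 to 19.7 ± 0.457 CPM, as did the cyclin gene CCNE2, overlapping INTS8, from 2.23 ± 0.373 to 6.24 ± 1.36 CPM, and CDK6 fell from 9.31 ± 0.348 to 3.01 ± 0.0968 CPM. CCND1, overlapping LTO1, was lower, just short of 2-fold (log2 fold change -0.99, SE 0.11, edgeR adjusted p 8.01e-06). RBL2, a pocket protein gene that overlaps AKTIP, did not pass at 0.18 (SE 0.11). The CDK inhibitor gene CDKN2C fell from 8.43 ± 0.808 to 3.605 ± 0.590 CPM while CDKN1B was higher by 0.38. In nucleotide synthesis TK1, thymidine kinase, fell from 42.9 ± 1.79 to 15.6 ± 3.902 CPM and MTHFD2 fell from 467 ± 19.99 to 206 ± 4.71 CPM, whereas RRM2B, a p53-induced ribonucleotide reductase subunit, rose from 65.2 ± 4.73 to 141 ± 1.84 CPM. In homologous recombination and Fanconi repair 3 of 46 genes rose and 4 fell, shares of 6.52% and 8.7% both under those of all genes. They were RAD54L, overlapping LRRC41, RAD9A, overlapping PPP1CA, and RAD51C, which rose, and PIF1, NBN, GEN1, overlapping SMC6, and SLX4, which fell. NBN, of the MRE11 complex, went from 82.2 ± 7.37 to 27.7 ± 2.01 CPM (log2 fold change -1.57, SE 0.15, edgeR adjusted p 1.66e-06). Of 33 replication-dependent histone genes tested 2 rose and 4 fell (6.06% and 12.1%, both under the shares of all genes). Their transcripts mostly lack poly(A) tails, so poly(A) capture measures only part of them.

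Most p53 targets rose. p53 is a transcription factor activated by DNA damage and stress, and its targets hold the cell cycle, repair DNA and trigger apoptosis. Of 54 targets tested, 34 rose (63% against 8.87% of all genes) and 1 fell, with a median log2 fold change of 1.53. MDM2, the ubiquitin ligase that restrains p53, stood at 146 and 137 CPM with R1881 and 548 and 554 CPM with the combination (log2 fold change 1.96, SE 0.11, edgeR adjusted p 1.39e-08), and CCNG1 at 163 and 168 CPM with R1881 and 413 and 436 CPM with the combination (log2 fold change 1.36, SE 0.13, edgeR adjusted p 1.72e-06). Beside these, all 6 genes that the list grouped under repair and nucleotide supply rose. Among them were XPC, overlapping LSM3, from 60.8 ± 1.74 to 225 ± 2.29 CPM, and DDB2 from 20.4 ± 0.274 to 146 ± 9.69 CPM. The ferredoxin reductase gene FDXR rose from 26.1 ± 2.396 to 171 ± 13.5 CPM. XPC and DDB2 recognise ultraviolet damage.

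Among the 16 p53 targets with roles in cell death 9 rose. The apoptosis-enhancing nuclease gene AEN went from 26.3 and 30.4 to 203 and 209 CPM (log2 fold change 2.87, SE 0.12, edgeR adjusted p 1.22e-09), and BAX, the pore-forming effector of the BCL2 family, from 23.3 and 23.01 to 76.1 and 88.2 CPM (log2 fold change 1.83, SE 0.14, edgeR adjusted p 1.87e-07). BBC3, which encodes the BH3-only protein PUMA, went from 6.002 and 5.39 to 32.8 and 41.1 CPM (log2 fold change 2.69, SE 0.24, edgeR adjusted p 9.1e-07). The death receptor gene TNFRSF10B was higher by less than 2-fold at 0.62 (SE 0.11), TNFRSF10A, overlapping TNFRSF10A-DT, and TNFRSF10D rose by 1.76 and 1.41, and the decoy receptor gene TNFRSF10C was the 1 target that fell, from 6.72 ± 0.625 to 2.61 ± 0.122 CPM. PERP did not pass at -0.11 (SE 0.12). GDF15, a stress cytokine, was at 299 ± 51.6 CPM with R1881 and 1045 ± 102 CPM with the combination, and already at 967 ± 367 CPM with TCE-5002. Its difference from TCE-5002 was 0.11 (SE 0.19, edgeR adjusted p 0.645).

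The p53 targets differed from both single inhibitors in number. Against namoline 31 of the 54 rose and 2 fell, and against TCE-5002 32 rose and 2 fell. Over all genes 12.8% rose and 14.7% fell against namoline, and 11.7% rose and 14.3% fell against TCE-5002. CDKN1A was at 234 and 176 CPM with namoline and 90.3 and 99.95 CPM with TCE-5002, levels that the combination exceeded by 2.82 (SE 0.15, edgeR adjusted p 7.15e-09) and 3.93 (SE 0.16, edgeR adjusted p 7.21e-10). None of the survival genes of the BCL2 family reached 2-fold, with MCL1 at -0.04 (SE 0.11), BCL2L1 at 0.31 (SE 0.12) and BCL2 at 0.22 (SE 0.34). BAK1, the second effector, rose from 25.4 ± 2.502 to 56.96 ± 5.45 CPM, and HRK was called from low levels, 0.617 and 1.53 CPM, a call lost when any 1 of the 4 libraries was left out. Of 15 caspases and regulators 0 rose and CASP9, the initiator of the mitochondrial pathway, fell from 8.18 ± 0.0813 to 3.63 ± 0.301 CPM. CFLAR, an inhibitor of death receptor signalling, was lower at -0.95, and XIAP and CASP2 did not pass at -0.15 and -0.11.

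**Figure D4:**
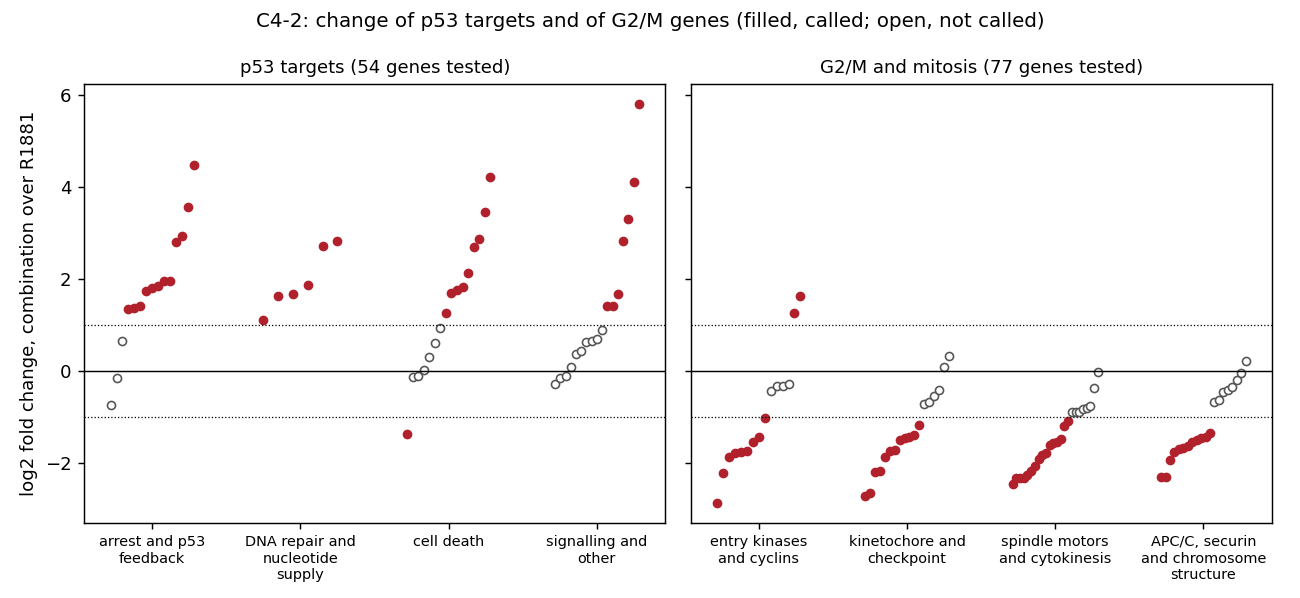
Log2 fold change of the combination over R1881 for each tested gene of the p53 target list (left) and of the G2/M and mitosis list (right), by role, with filled points called and open points not called and dotted lines at 2-fold. Most p53 targets lie above the upper line and most G2/M genes below the lower one.

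The integrated stress response split. Its kinases lower general translation and raise ATF4, which drives ATF3, DDIT3 (CHOP), PPP1R15A (GADD34) and enzymes of amino acid synthesis. Of 15 regulators 4 rose and 4 fell (26.7% each), and of 13 amino acid synthesis genes 0 rose and 7 fell (53.8%). Over all genes 8.87% rose and 12.8% fell. DDIT3, which overlaps MARS1, stood at 381 and 355 CPM with R1881 and 777 and 793 CPM with the combination (log2 fold change 1.09, SE 0.11, edgeR adjusted p 2.67e-06). PPP1R15A, which restores translation, stood at 18.98 and 20.1 CPM with R1881 and 98.9 and 109.9 CPM with the combination (log2 fold change 2.42, SE 0.15, edgeR adjusted p 2.86e-08). ATF4 itself stood at 712 and 735 CPM with R1881 and 472 and 521 CPM with the combination, lower by less than 2-fold (log2 fold change -0.54, SE 0.11, edgeR adjusted p 0.00111). ATF5, overlapping NUP62, and CHAC1, a glutathione-degrading enzyme, fell from 64.3 ± 1.15 to 12.6 ± 2.0 CPM and from 49.4 ± 4.89 to 12.5 ± 0.695 CPM.

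Genes of serine synthesis fell. PSAT1, the aminotransferase of the pathway, stood at 767 and 787 CPM with R1881 and 150.4 and 157 CPM with the combination (log2 fold change -2.34, SE 0.13, edgeR adjusted p 1.38e-08). PSPH went from 98.7 ± 4.09 to 20.8 ± 0.114 CPM and PHGDH, the first enzyme, from 599.6 ± 11.4 to 235 ± 14.8 CPM. ASNS, asparagine synthetase, was lower by less than 2-fold, at -0.77 (SE 0.13), and SHMT2 did not pass at -0.14 (SE 0.11). With namoline DDIT3 was at 19.97 and 16.7 CPM and ATF4 at 326 and 291 CPM, and with TCE-5002 they were at 92.4 and 95.3 and 408 and 449 CPM. The combination exceeded these DDIT3 levels by 5.42 (SE 0.14, edgeR adjusted p 2.71e-12) and 3.06 (SE 0.12, edgeR adjusted p 4.96e-10), so that DDIT3 was below R1881 with each single inhibitor and above it with both. ATF3 and PPP1R15A had the same order, with ATF3 at 36.01 and 39.3 CPM with namoline and 77.9 and 69.7 CPM with TCE-5002. The letters TGATGNAA of the CHOP and ATF4 element were in 4 of 22 matched promoters of the list (18.2%) against 3.67% of all promoters. They were in 1 of 9 matched genes that fell and 3 of the 13 others.

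Amino acid transporters and tRNA synthetases are further outputs of ATF4. Of 24 transporters 7 fell and 2 rose (29.2% and 8.33%, against 12.8% and 8.87% of all genes). The subunits of the large neutral amino acid carrier moved apart. SLC7A5, its light chain, stood at 449 and 509.6 CPM with R1881 and 100.4 and 115 CPM with the combination (log2 fold change -2.15, SE 0.15, edgeR adjusted p 5.85e-08), and SLC3A2, its heavy chain, at 476 and 495 CPM with R1881 and 1312 and 1382 CPM with the combination (log2 fold change 1.47, SE 0.12, edgeR adjusted p 3.18e-07). SLC7A5 was low and SLC3A2 high in both combination libraries. The glutamine and neutral amino acid transporter genes SLC38A2 and SLC1A4 fell from 787 ± 20.4 to 305 ± 1.81 CPM and from 32.2 ± 1.11 to 10.1 ± 0.548 CPM, and SLC6A9, a glycine carrier that overlaps CCDC24, fell from 124 ± 10.1 to 41.1 ± 3.61 CPM. SLC7A1 and SLC38A1 were lower by less than 2-fold at -0.74 (SE 0.11) and -0.89 (SE 0.11). None of 20 cytosolic and 17 mitochondrial tRNA synthetases reached 2-fold, with ranges from -0.93 to 0.67 and from -0.81 to 0.85.

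**Figure D5:**
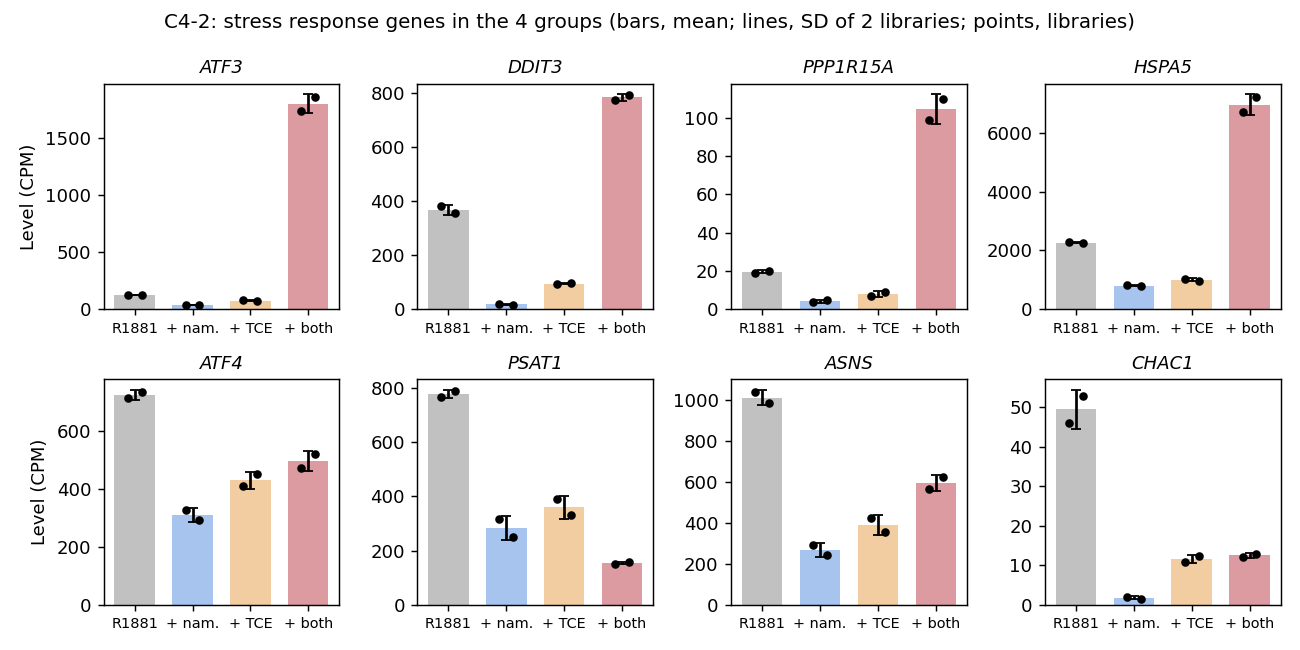
Level in CPM of 8 stress response genes in the 4 C4-2 groups, as bars for the mean, lines for the SD of 2 libraries and points for the libraries. ATF3, DDIT3, PPP1R15A and HSPA5 were highest with the combination and below R1881 with each single inhibitor, while ATF4, PSAT1, ASNS and CHAC1 were highest with R1881.

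Some chaperone genes rose. HSPA5, which encodes the endoplasmic reticulum chaperone BiP, stood at 2273 and 2269 CPM with R1881 and 6708 and 7217 CPM with the combination (log2 fold change 1.62, SE 0.12, edgeR adjusted p 1.1e-07). It was at 807 and 790.0 CPM with namoline and 1040.0 and 960.5 CPM with TCE-5002. Of 30 endoplasmic reticulum genes 3 rose (10%, near the 8.87% of all genes) and 0 fell. By adjusted p 15 were higher and 2 lower, against 24.8% and 25.6% of all genes. The other 2 that rose were DNAJB9, overlapping PNPLA8 and THAP5, from 83.05 ± 0.994 to 256 ± 16.3 CPM, and DERL3, overlapping SMARCB1, from 1.69 ± 0.300 to 7.65 ± 0.458 CPM. HSP90B1 and CANX did not pass, at 0.25 (SE 0.12) and 0.18 (SE 0.12). In the cytosol and mitochondria 10 of 25 heat shock genes rose (40% against 8.87% of all genes) and 0 fell. HSPA4L went from 53.2 ± 1.98 to 217 ± 3.64 CPM (log2 fold change 2.03, SE 0.13, edgeR adjusted p 4.13e-08) and HSPA1B, which has a near-identical copy, from 34.6 ± 3.64 to 121 ± 27.2 CPM (log2 fold change 1.81, SE 0.17, edgeR adjusted p 1.51e-06). The small heat shock genes HSPB8 and CRYAB rose from under 1 CPM to 5.43 and 1.98 CPM. HSP90AA1 was higher by less than 2-fold (log2 fold change 0.80, SE 0.14, edgeR adjusted p 0.000353) while HSPA8 and HSPD1 did not pass at 0.26 and -0.12. Of 37 proteasome subunits 19 were higher by adjusted p (against 24.8% of all genes), mostly by less than 2-fold. The 2 that rose were the immunoproteasome subunits PSMB8 and PSMB9, the latter overlapping PSMB8-AS1 and called from a few reads.

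Some NRF2 targets and both ferritin genes rose. NRF2 activates antioxidant genes, and ferritin stores iron. Of 30 NRF2 and glutathione genes 13 rose (43.3% against 8.87% of all genes) and 0 fell, 3 were lower by adjusted p and 9 did not pass, with a median of 0.76. FTH1, the ferritin heavy chain, stood at 641 and 835 CPM with R1881 and 5614 and 5926 CPM with the combination (log2 fold change 2.97, SE 0.17, edgeR adjusted p 1.39e-08), and FTL, its light chain, at 274 and 300.1 CPM with R1881 and 1240.0 and 1304 CPM with the combination (log2 fold change 2.15, SE 0.14, edgeR adjusted p 5.28e-08). Ferritin has many processed pseudogenes, so its counts are uncertain. SRXN1, which repairs peroxiredoxins, went from 5.54 ± 1.31 to 37.8 ± 6.69 CPM (log2 fold change 2.78, SE 0.26, edgeR adjusted p 1.15e-06), OSGIN1 from 6.18 ± 1.49 to 34.8 ± 0.0661 CPM and TXNRD1, thioredoxin reductase, from 532 ± 12.5 to 1467 ± 121 CPM. SLC7A11, a cystine carrier that ATF4 also drives, was lower by less than 2-fold at -0.43 (SE 0.14). Of 13 iron handling genes 3 rose (23.1% against 8.87% of all genes) and 3 were lower by adjusted p (against 25.6% of all genes). HMOX1, which frees iron from haem, rose from 10.3 ± 1.53 to 25.7 ± 2.53 CPM, and TFRC, the transferrin receptor, was higher by 0.88. Of 5 metallothionein-list genes tested MT1X rose from 8.79 ± 0.480 to 39.8 ± 7.39 CPM and MT1F fell from 5.12 ± 0.601 to 1.58 ± 0.0577 CPM. Metallothioneins are similar copies, so their counts are uncertain. NQO1 was at 738 ± 20.2 CPM with namoline, above its 438 ± 20.6 CPM with the combination, and at 204 ± 12.4 CPM with R1881.

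Of 45 lysosome and autophagy genes 7 rose (15.6% against 8.87% of all genes) and 0 fell. SQSTM1, the autophagy receptor p62, which overlaps MGAT4B, went from 429 and 482 to 1304 and 1399 CPM (log2 fold change 1.57, SE 0.13, edgeR adjusted p 3.87e-07). The other 4 autophagy genes that rose were FLCN, RRAGD, GABARAPL1 and ATG2A, at 1.38, 1.27, 1.26 and 1.07, and the 2 lysosomal hydrolase genes were GLA and NEU1, at 1.66 and 1.33. MAP1LC3B, overlapping FBXO31, did not pass at 0.14 (SE 0.11). Of the 8 tested genes of the aryl hydrocarbon receptor pathway, which senses xenobiotics, CYP1A1, TIPARP, AHRR, overlapping PDCD6, and NQO1 rose, and CYP1B1, overlapping RMDN2, fell. CYP1A1, a xenobiotic-metabolising enzyme, was at 0.741 ± 0.0619, 12.7 ± 1.63, 2.02 ± 0.0543 and 3.13 ± 0.236 CPM with R1881, namoline, TCE-5002 and the combination.

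TXNIP, an arrestin-domain protein that limits glucose uptake, stood at a separate level in each of the 4 groups. It stood at 767 and 714 CPM with R1881 and 99.01 and 94.7 CPM with the combination, and at 319.9 and 278 CPM with namoline and 4.26 and 4.27 CPM with TCE-5002. The log2 fold change was -2.93 (edgeR adjusted p 7.43e-10, SE 0.12) against R1881 and 4.50 (SE 0.14, edgeR adjusted p 3.8e-11) against TCE-5002. The order from high to low was R1881, namoline, the combination and TCE-5002, and no neighbouring groups overlapped.

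Sterol and fatty acid genes changed in part. Of 33 cholesterol synthesis genes 7 rose and 1 fell (21.2% and 3.03%, against 8.87% and 12.8% of all genes). The sterol element letters TCACNCCAC were in 1 of 25 matched promoters of the list (4%) against 1.15% of all promoters. MSMO1 and HSD17B7, of the later sterol steps, rose from 25.3 ± 1.25 to 75.99 ± 4.61 CPM and from 23.9 ± 2.35 to 70.0 ± 5.26 CPM, and INSIG1, a brake on the pathway, rose from 177 ± 13.4 to 457 ± 37.2 CPM. SREBF2, a transcription factor of the pathway, did not pass at -0.01 (SE 0.12), and SREBF1, overlapping RAI1, was lower at -0.66. INSIG1 was at 584 ± 64.7 CPM with namoline, from which the combination differed by -0.35 (SE 0.13, edgeR adjusted p 0.0313). Among 28 fatty acid genes ELOVL6 and FADS1, overlapping FADS2, rose from 5.28 ± 0.299 to 14.04 ± 3.55 CPM and from 176 ± 0.293 to 371 ± 14.3 CPM, and FASN, the fatty acid synthase, was higher by less than 2-fold at 0.61 (SE 0.19). FASN stood higher with either single inhibitor, at 6452 ± 1625 CPM with namoline and 4131 ± 1044 CPM with TCE-5002, than its 1952 ± 192 CPM with both.

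In glycolysis and hypoxia 5 of 41 genes rose and 6 fell, shares near those of all genes. HIF1A, the hypoxia-stabilised factor, rose from 178 ± 10.9 to 421 ± 13.3 CPM and VEGFA, its angiogenic target, from 449 ± 17.8 to 968 ± 121 CPM, while NDRG1, also an androgen target, fell from 119.7 ± 3.95 to 53.7 ± 3.38 CPM, and PGK1 fell from 574 ± 12.2 to 280.2 ± 10.7 CPM. GAPDH and ENO1 did not pass at -0.12 (SE 0.12) and -0.21 (SE 0.11). The 13 mitochondrially encoded genes had 0 past 2-fold, from -0.60 to 0.53. By adjusted p alone 25.6% of all genes were lower and 24.8% higher. Of 80 nuclear-encoded respiratory chain genes 32 were lower by adjusted p and 6 higher, with 0 fallen 2-fold, 2 risen (NDUFV2 and NDUFB8, which overlaps HIF1AN) and a median of -0.24. ATP5F1B, a catalytic subunit of ATP synthase, went from 1455 ± 37.2 to 941 ± 15.6 CPM (log2 fold change -0.63, SE 0.11, edgeR adjusted p 0.000303). Cytosolic ribosomal protein genes went the other way, with 38 of 79 higher by adjusted p, 2 lower and a median of 0.36. RPS6 was at 0.45 (SE 0.14) and RPL4 at 0.43 (SE 0.12). Mitochondrial ribosomal protein genes had 5 of 78 risen (6.41%, under the 8.87% of all genes) and 0 fallen.

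Cytoskeletal targets of SRF and YAP split by gene. SRF drives actin genes and YAP and TAZ act downstream of cell shape. Of 30 tested, 9 rose and 5 fell (30% and 16.7%, against 8.87% and 12.8% of all genes). Beside TPM4 and FLNA, MYL9, a myosin light chain, and ACTA2, overlapping FAS, rose from under 1 CPM to 8.42 and 7.87 CPM. ACTB, beta-actin, stood at 1243 and 1290.0 CPM with R1881 and 2612 and 2837 CPM with the combination (log2 fold change 1.11, SE 0.12, edgeR adjusted p 5.39e-06), above R1881 in both libraries, and ACTG1 was higher by less than 2-fold at 0.55 (SE 0.12). WWTR1, which encodes TAZ, fell from 10.5 ± 1.03 to 1.995 ± 0.444 CPM (log2 fold change -2.39, SE 0.22, edgeR adjusted p 8.96e-07), and CRIM1, CAVIN1 and AJUBA fell, at -1.84, -1.28 and -1.22.

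Immediate-early and MAPK feedback genes had 10 of 39 members risen and 4 fallen (25.6% and 10.3%, against 8.87% and 12.8% of all genes). MAFF, a small MAF factor, went from 3.84 ± 0.0529 to 34.9 ± 3.39 CPM (log2 fold change 3.18, SE 0.21, edgeR adjusted p 4.02e-08), JUND from 57.2 ± 6.597 to 160.4 ± 20.3 CPM, and DUSP5, a phosphatase of ERK, from 2.04 ± 0.112 to 19.1 ± 0.944 CPM (log2 fold change 3.21, SE 0.20, edgeR adjusted p 3.44e-08). DUSP4, SPRED1 and SPRED3, further inhibitors of the pathway, fell, at -1.22, -1.21 and -1.31. Without R1881 replicate 2 or combination replicate 1 SPRED3 was at -1.20 or -0.82 and did not pass the test. Of 29 receptor tyrosine kinases and ligands 5 rose and 8 fell (17.2% and 27.6%, against 8.87% and 12.8% of all genes). Among the 16 receptors 5 fell and 1 rose, and among the 13 ligands 3 fell and 4 rose. ERBB3 stood at 281 and 279 CPM with R1881 and 119 and 123 CPM with the combination (log2 fold change -1.21, SE 0.10, edgeR adjusted p 5.98e-07). FGFR4 and MET fell from 8.75 ± 0.623 to 2.21 ± 0.0971 CPM and from 8.01 ± 1.28 to 2.04 ± 1.01 CPM, and EGFR was lower by less than 2-fold at -0.60 (SE 0.10). KITLG, the ligand of the receptor KIT and a p53 target, rose from 3.81 ± 0.363 to 38.2 ± 0.909 CPM (log2 fold change 3.32, SE 0.21, edgeR adjusted p 2.88e-08). PDGFA rose from 11.9 ± 0.445 to 28.7 ± 4.098 CPM. The ligand genes that fell were IGF1, overlapping HELLPAR (from 5.38 ± 0.617 to 1.73 ± 0.582 CPM), HBEGF (from 5.91 ± 0.463 to 2.77 ± 0.334 CPM) and BTC, which was under 1 CPM in every library of both groups.

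Of 35 TGF-beta and BMP genes 5 rose and 7 fell (14.3% and 20%, against 8.87% and 12.8% of all genes). Of 17 ligands, receptors and mediators 3 rose, which were BMP7, SMAD9 and GDF15, and 1 fell, TGFB3. SMAD9, a signal mediator of the BMP branch, went from 44.7 ± 1.104 to 98.8 ± 5.66 CPM. Of 18 targets and feedback genes 6 fell and 2 rose. The 2 that rose were CCN1, a matricellular protein (from 2.75 ± 0.219 to 37.4 ± 4.398 CPM), and ID4, an inhibitor of DNA binding (from 1.99 ± 0.124 to 14.1 ± 1.195 CPM). PMEPA1, a feedback inhibitor that androgen also induces, fell from 149 ± 8.999 to 59.1 ± 2.49 CPM (log2 fold change -1.33, SE 0.12, edgeR adjusted p 7.12e-07), LTBP2 fell from 20.8 ± 1.91 to 6.99 ± 0.557 CPM and INHBE, also a stress gene, from 5.53 ± 0.205 to 0.973 ± 0.102 CPM. Wnt genes had 7 of 23 fallen (30.4% against 12.8% of all genes) and 0 risen. WNT5A, a ligand, went from 5.72 ± 1.18 to 0.745 ± 0.0348 CPM (log2 fold change -2.94, SE 0.29, edgeR adjusted p 1.86e-06), and the receptor genes FZD8 and FZD4 from 17.7 ± 0.997 to 4.695 ± 0.357 CPM and from 21.2 ± 0.716 to 7.903 ± 0.370 CPM. CTNNB1, the effector beta-catenin, did not pass at -0.14 (SE 0.11). In the Notch pathway the ligand gene DLL1 and the target HES4 rose from 9.79 ± 0.589 to 34.02 ± 4.27 CPM and from 14.7 ± 2.22 to 36.9 ± 2.05 CPM, and the ligand gene JAG1 and the fringe genes LFNG and MFNG fell, JAG1 from 42.01 ± 0.838 to 13.4 ± 2.21 CPM.

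NF-kB, interferon and antigen presentation genes were mixed. Of 28 NF-kB and cytokine genes 15 were tested, of which 4 rose and 2 fell (26.7% and 13.3%). The subunit gene RELB rose from 2.51 ± 0.0301 to 10.2 ± 0.350 CPM, with LIF, NFKBIE and NFKBIZ, overlapping NXPE3, and TNFAIP2 and TNFAIP8 fell, TNFAIP8 from 42.97 ± 2.23 to 17.4 ± 4.11 CPM. Inflammatory cytokine genes such as IL6 and CXCL8, added after their values were seen, were at or near 0. Interferon-stimulated genes had 3 of 28 risen and 8 fallen (10.7% and 28.6%, against 8.87% and 12.8% of all genes). IRF1 rose from 6.75 ± 0.313 to 22.9 ± 0.117 CPM (log2 fold change 1.76, SE 0.16, edgeR adjusted p 1.04e-06) and HERC6 fell from 24.3 ± 0.865 to 5.805 ± 0.280 CPM (log2 fold change -2.07, SE 0.18, edgeR adjusted p 5.99e-07). Antigen presentation had 5 of 18 genes risen and 2 fallen (27.8% and 11.1%, against 8.87% and 12.8% of all genes). NLRC5, the transactivator of MHC class I genes, went from 4.16 ± 0.395 to 37.4 ± 1.35 CPM (log2 fold change 3.17, SE 0.22, edgeR adjusted p 7.58e-08), TAP1, a peptide transporter, from 14.7 ± 0.238 to 45.04 ± 1.296 CPM, and HLA-B rose from 31.5 ± 2.55 to 71.2 ± 3.13 CPM. HLA-C and HLA-E were higher by less than 2-fold at 0.80 (SE 0.13) and 0.93 (SE 0.12), B2M did not pass at 0.06 (SE 0.13), and TAP2 fell, at -1.01. HLA-DPA1, a class II gene overlapping HLA-DPB1, fell from 0.701 ± 0.184 to 0.145 ± 0.0496 CPM, a low level. HLA genes are polymorphic and similar to each other, so their counts are uncertain.

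Several clock genes rose. The clock is a feedback loop in which CLOCK and BMAL1 drive the PER, CRY and NR1D repressors. Of 19 genes 7 rose (36.8% against 8.87% of all genes) and 0 fell. By adjusted p alone 14 were higher and 2 lower (against 24.8% and 25.6% of all genes), and the median log2 fold change was 0.81. PER1 stood at 22.5 and 23.96 CPM with R1881 and 218 and 254 CPM with the combination (log2 fold change 3.35, SE 0.15, edgeR adjusted p 1.29e-09), PER3 at 34.4 and 37.3 CPM with R1881 and 135 and 146 CPM with the combination (log2 fold change 1.97, SE 0.13, edgeR adjusted p 6.02e-08), and CIART at 11.9 and 10.9 CPM with R1881 and 81.03 and 92.3 CPM with the combination (log2 fold change 2.92, SE 0.15, edgeR adjusted p 4.75e-09). NR1D1, which overlaps THRA on the other strand, rose from 6.39 ± 1.99 to 41.1 ± 6.29 CPM. BMAL1 and CLOCK, overlapping TMEM165, which were added after their values were seen, were at 0.45 (SE 0.13) and -0.22 (SE 0.12), and PER2, likewise added, was lower at -0.77. The libraries of a group carry no time-of-day label.

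HOX cluster genes, which set positional identity, had 12 of 23 fallen and 2 risen (52.2% and 8.7%, against 12.8% and 8.87% of all genes). Several overlap antisense transcripts, and reads were counted without strand. HOXA5 went from 7.74 ± 0.546 to 1.605 ± 0.0624 CPM (log2 fold change -2.27, SE 0.24, edgeR adjusted p 4.02e-06), HOXC6, overlapping HOXC9 and HOXC4, from 33.4 ± 0.666 to 12.9 ± 1.55 CPM (log2 fold change -1.37, SE 0.14, edgeR adjusted p 2.47e-06), and HOXB5, overlapping HOXB-AS3, from 4.003 ± 0.281 to 0.635 ± 0.121 CPM. HOXB9 rose from 9.15 ± 0.863 to 28.6 ± 1.98 CPM (log2 fold change 1.65, SE 0.17, edgeR adjusted p 3.33e-06), and HOXD8 rose to 1.77 CPM. Matrix and heparan sulfate genes had 5 risen and 8 fallen of 31 (16.1% and 25.8%). LAMA3, a laminin chain, stood at 225 and 235 CPM with R1881 and 85.7 and 80.3 CPM with the combination (log2 fold change -1.47, SE 0.11, edgeR adjusted p 1.83e-07), SDC4, a syndecan, fell from 57.3 ± 3.52 to 17.7 ± 3.94 CPM, MMP15, a membrane metalloproteinase, from 146 ± 14.7 to 53.8 ± 0.225 CPM and FN1, fibronectin, from 26.98 ± 0.670 to 9.0 ± 0.333 CPM. ADAM17, a sheddase that overlaps IAH1, rose from 36.01 ± 1.18 to 84.99 ± 4.82 CPM and SDC1 rose from 11.8 ± 1.12 to 27.8 ± 1.599 CPM.

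Few genes of the chromatin and RNA-processing lists reached 2-fold. Of 38 Polycomb and histone methyltransferase genes EZH1, a PRC2 methyltransferase, and NSD3, overlapping DDHD2, rose, and JARID2, a PRC2 cofactor, fell. EZH1 went from 41.04 ± 1.11 to 98.4 ± 2.55 CPM (log2 fold change 1.26, SE 0.11, edgeR adjusted p 9.19e-07) and JARID2 from 38.6 ± 1.58 to 11.2 ± 1.29 CPM (log2 fold change -1.78, SE 0.14, edgeR adjusted p 2.6e-07). No gene of 29 histone acetylation genes reached 2-fold. In DNA methylation UHRF1, which recruits DNMT1, rose from 1.6 ± 0.0220 to 4.3 ± 0.138 CPM and UHRF2 from 63.6 ± 5.92 to 127 ± 5.54 CPM, and TET1 fell from 1.81 ± 0.503 to 0.452 ± 0.215 CPM. UHRF1 was at 27.5 ± 5.48 CPM with namoline, and the combination differed from namoline by -2.67 (SE 0.20, edgeR adjusted p 8.41e-08). Of 53 splicing factors SRRM1, CLK1 and U2AF1 rose and NOVA1 fell. SRRM1, an SR-related protein, stood at 90.5 and 92.8 CPM with R1881 and 244 and 267 CPM with the combination (log2 fold change 1.48, SE 0.11, edgeR adjusted p 1.75e-07). The zinc finger genes of chromosome 19, many of them repressors of transposable elements, had 25 of 218 risen (11.5%) and 11 fallen (5.05%). Over all genes these shares were 8.87% and 12.8%. ZNF841, overlapping ZNF432, stood at 26.5 and 23.5 CPM with R1881 and 159 and 167 CPM with the combination (log2 fold change 2.70, SE 0.12, edgeR adjusted p 1.6e-09). Of 14 tubulins the 1 that rose was TUBG1, gamma-tubulin, overlapping RETREG3, from 44.04 ± 7.11 to 98.1 ± 4.56 CPM, and TUBB was higher by 0.41 than with R1881 but at 856 ± 95.9 CPM with namoline against 244 ± 1.19 CPM with the combination.

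The markers of cell state changed in part. Of 16 luminal markers 6 fell and 1 rose (37.5% and 6.25%, against 12.8% and 8.87% of all genes). The 1 that rose was OVOL1, an epithelial transcription factor, from 2.43 ± 0.0270 to 11.4 ± 0.507 CPM. Among the fallen ones KLK2, KLK3, HOXB13 and FOLH1 also belong to the prostate lists. KRT8 was higher by 0.56 and CDH1 lower, at -0.64. Of 8 mesenchymal markers tested 3 fell and 1 rose (37.5% and 12.5%). Among the mesenchymal markers ZEB1, a repressor of epithelial genes that overlaps ZEB1-AS1, rose from 0.418 ± 0.323 to 5.45 ± 0.785 CPM (log2 fold change 3.58, SE 0.43, edgeR adjusted p 1.25e-05), while VIM, which overlaps VIM-AS1, PDGFRB and FN1 fell, COL1A1 was higher by less than 2-fold (log2 fold change 0.61, SE 0.21, edgeR adjusted p 0.0228) and CDH2 was at 0 in both groups. Without R1881 replicate 1 VIM was at -0.88 and PDGFRB at -1.14, and neither passed the test. Of 28 neuroendocrine and REST-repressed genes 14 passed the filter, of which 2 rose and 2 fell (14.3% each, against 8.87% and 12.8% of all genes). PCSK1N and ENO2 rose from 0.692 ± 0.456 to 9.405 ± 1.16 CPM and from 5.098 ± 0.0378 to 21.03 ± 0.0303 CPM, CPE and STMN3 fell from 46.2 ± 0.825 to 14.2 ± 0.824 CPM and from 4.62 ± 0.273 to 2.05 ± 0.440 CPM, and the defining gene CHGA was at or near 0 in both groups. The summed level of the 17 luminal markers was 4677 and 4828 CPM with R1881 and 2939 and 2970.0 CPM with the combination.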

How the data were processed

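RNA was sequenced from 12 libraries in 6 groups of 2, with poly(A) capture and paired-end reads. The deposited values are counts of read fragments per gene. Per the submitters' processing notes, reads were aligned with STAR on GRCh38 after adapter trimming with Trim Galore. The header of the deposited counts names featureCounts version 1.5.0-p1 and Ensembl release 83. Counting was treated as unstranded here, so the counts of overlapping genes are uncertain. Groups came from the sample titles, because the treatment protocol in the labels describes a knockdown.

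The 8 C4-2 libraries were fitted together with edgeR version 4.0.16 (R version 4.3.3), using filterByExpr, TMM scaling and the quasi-likelihood F test with Benjamini-Hochberg adjustment. A gene was called at an adjusted p under 0.05 and at least 2-fold. The 4 libraries labelled LNCaP entered only an alternative. CPM used TMM-scaled library sizes. Genes named are the target enzymes with KLK3, TMPRSS2 and FOXA1, the 12 protein-coding genes with the largest called change in each direction at 10 CPM or more in the higher group with groups that did not overlap, and in each list up to 4 called members per direction by size and up to 4 per role by level, with every gene that a count of 5 or fewer refers to and the defining cell type markers. The members and lists were chosen with earlier results of these data known. Promoter sequences are from RefSeq (GRCh38.p14). The fit was tested on simulated data, and DESeq2 version 1.42.0 was an alternative. Some genes are not reported here.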

Additional observations from a re-analysis of the deposited data

How the results depend on the processing

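The count of genes called with the combination against R1881 (3834) stayed within 1.5 times under 15 of 17 alternatives and fell to 1529 with a filter at 10 CPM in 2 libraries, which tests fewer genes, and to 1386 with glmTreat, a stricter test against 2-fold. The same 2 alternatives gave 2281 and 2245 genes against namoline, where 4861 were called, and 2118 and 2018 against TCE-5002, where 4614 were called. Leaving out 1 library gave 3174 to 3509 genes against R1881, 4216 to 4560 against namoline and 4050 to 4901 against TCE-5002. DESeq2 called 3266. Scaling by library totals alone shifted the median of all genes to -0.17 and the share of higher genes among those called from 40.98% to 31.18%. Replicate numbers in the labels name libraries and nothing showed that they pair them (correlation of deviations 0.00202). The fit with a replicate block called 3871 genes, and a block on only the 4 libraries compared, an alternative chosen after seeing the data, called 3988.

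Genes near 0 changed sign. PHF2 and SREBF2 were at 0.015 and 0.0165 with RLE scaling, 0.015 and 0.0165 with DESeq2, 0.009 and 0.0104 with all 12 libraries, 0.0532 and 0.045 with a GC offset, and 0.0531 and 0.0436 with a GC offset and replicate block. KDM1A and MCL1 were at 0.0349 and 0.0488 with the GC offset and 0.0352 and 0.0486 with the block added. B2M was at -0.0752 with library totals and -0.0031 with the filter at 10 CPM. Leaving out 1 library gave -0.0632 to 0.0444 for PHF2, -0.0906 to 0.0668 for SREBF2, -0.0696 to 0.0071 for MCL1 and -0.0496 to 0.16 for B2M.

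Of the list medians under the alternatives 835 stayed within the spread of replicates and 187 moved past it, and none of those printed in the text changed sign. Medians near 0 that are not printed, such as those of interferon-stimulated, iron handling and fatty acid genes, did. Over the alternatives the CoREST median ran from -0.24 to -0.03, DNA replication from 0.08 to 0.29, NRF2 from 0.52 to 0.82, the respiratory chain from -0.38 to -0.14, ribosomal proteins from 0.23 to 0.44 and G2/M from -1.64 to -1.20. No named gene that was called changed direction. Calls of genes at low level were lost at the adjusted p when 1 library was left out, for HRK with any of the 4 libraries, for HSD17B6 and PDGFRB without either R1881 library or combination replicate 2, for PSMB9 without R1881 replicate 2 or either combination library, for VIM without R1881 replicate 1 or either combination library, for SPRED3 without R1881 replicate 2 or combination replicate 1, and for NFKBIZ without R1881 replicate 2. Genes near 2-fold, such as UAP1, VEGFA, TAP2, UHRF2 and CDC6, stayed past the adjusted p but fell short of 2-fold without single libraries. DDIT3 was at 0.96 with library totals alone. The cause was not tested.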
